A study of Mus musculus with 13 samples.

Results

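Expression of genes that are often mutated in human endometrial cancer was examined in endometrium of 13 oophorectomised mice. The set named 7 genes, Pik3ca, Pik3r1, Arid1a, Ctnnb1, Trp53, Fbxw7 and Ctcf, and a gene was measured where an array feature carried its symbol and no other. Of these 7 genes, 4 met that rule, Pik3ca, Pik3r1, Fbxw7 and Ctcf, each with 1 feature, among 30142 genes with such a feature and 65929 features in all. The feature of Arid1a also carried the microRNA symbol Mir7227 and that of Ctnnb1 also carried Mir7090, so no value is given for either gene. Trp53 was not analysed here. For these 3 genes the partners and targets of their proteins were described instead.

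All mice were female C57BL/6, had both ovaries removed at 6 to 8 weeks of age and were then kept for 12 weeks on 1 of 4 treatments. MIX mice (n = 3) carried a subcutaneous estradiol-releasing pellet and ate a high-fat diet. E2 mice (n = 4) carried the pellet on chow, HD mice (n = 3) ate the high-fat diet without a pellet, and CON mice (n = 3) ate chow without a pellet. Neither the dose of the pellet nor the fat content of the diet is given in the sources used here. Lacking ovaries, all groups, CON included, model an endometrium without cyclic ovarian hormones and, in the pellet groups, one under estradiol that no ovarian progesterone opposes. The tissue was scraped from the opened uterus, so it mixes epithelium, stroma and other cells, and no tumour was sampled.

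Pik3ca encodes p110α, the catalytic subunit of phosphatidylinositol 3-kinase (PI3K), and Pik3r1 encodes p85α, the regulatory subunit that stabilises p110α and holds it inactive until a receptor or an adaptor such as Irs1 binds, after which the lipid product of the enzyme recruits the kinase Akt. Arid1a encodes a subunit of the SWI/SNF chromatin remodelling complexes, β-catenin (Ctnnb1) carries Wnt signals to the nucleus and joins cadherins to the cytoskeleton, and p53 (Trp53) is the transcription factor that answers DNA damage. Fbxw7 is the substrate-recognition subunit of an SCF ubiquitin ligase that marks cyclin E, Myc and Notch for degradation, and Ctcf is a zinc-finger protein that stops cohesin and so anchors chromatin loops. In endometrial tumours PI3K subunits, Arid1a, Ctnnb1, Fbxw7 and Ctcf are known to be altered mainly by mutation, a change that a transcript level does not report.

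The sequences just before the start sites were searched for sites linked to estradiol and to the pathways. RefSeq (GRCm38.p6) held 7 windows of 250 bases for the 4 genes. Pik3r1 and Ctcf are printed because their pellet differences had the lowest p of the 4 genes. Pik3r1 has a GC-rich window (76.4% GC, chr13:101768218-101768467, minus strand) and an AT-richer one at another start site (42.4% GC, chr13:101692631-101692880, minus strand). The window of Ctcf (chr8:105636288-105636537, plus strand) had 77.6% GC, against a median of 52.4% over all windows. Capitals mark matches on either strand to the Sp1 site GGGCGG, the CCAAT box and TTTGAA, the CHR element found in cell cycle genes.
Pik3r1 window 1: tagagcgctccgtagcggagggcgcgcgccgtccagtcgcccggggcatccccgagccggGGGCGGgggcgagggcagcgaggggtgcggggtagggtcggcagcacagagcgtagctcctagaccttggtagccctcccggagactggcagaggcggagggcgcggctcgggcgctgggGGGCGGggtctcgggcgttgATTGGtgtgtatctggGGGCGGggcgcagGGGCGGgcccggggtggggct
Pik3r1 window 2: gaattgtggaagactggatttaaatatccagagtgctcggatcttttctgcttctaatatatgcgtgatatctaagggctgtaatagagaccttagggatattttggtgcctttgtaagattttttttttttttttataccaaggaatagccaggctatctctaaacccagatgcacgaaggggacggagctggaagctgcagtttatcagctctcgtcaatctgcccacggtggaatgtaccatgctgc
Ctcf window: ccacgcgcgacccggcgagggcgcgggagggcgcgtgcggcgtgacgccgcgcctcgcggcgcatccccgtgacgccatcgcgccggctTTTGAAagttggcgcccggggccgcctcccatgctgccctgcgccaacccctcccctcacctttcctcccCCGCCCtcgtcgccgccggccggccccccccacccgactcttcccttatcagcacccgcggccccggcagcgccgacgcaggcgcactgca
The first Pik3r1 window held 4 matches to GGGCGG and 1 to CCAAT, and the second held no match to any motif searched. The Ctcf window held 1 match to GGGCGG and 1 to TTTGAA, and that of Pik3ca (61.6% GC) held 1 to GGGCGG. Fbxw7 windows 1 (68.0% GC) and 3 (45.6% GC) held 3 and 2 matches to GGGCGG, and window 2 (28.8% GC) held no such match. Among all 32851 windows, 32.7% hold GGGCGG, 33.8% hold CCAAT and 16.0% hold TTTGAA. None of the 7 windows held the estrogen response element, GGTCA and TGACC with 3 bases of any kind between (0.0639% of all windows), its arm GGTCA alone (35.2%), the FOXO site TGTTTAC (3.17%) or the E2F sites TTTCGCGC (0.256%) and TTTGGCGC (0.417%). A match is a description of letters and not a bound site, and no match says only that these letters are absent from these windows.

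Values are log2 expression values as deposited, 1 array per mouse, and array medians lay between 4.48 and 4.71. Titles of the samples use a numbered or a lettered animal code, and all 3 MIX mice have lettered codes. A term for the code style was therefore part of every fit, estimated from CON, E2 and HD, where 1 mouse per group is lettered. A scrape of endometrium should be rich in epithelium, and the mean of 13 epithelial markers was between 9.66 and 10.2 in every mouse. The mean of 10 smooth muscle markers was 6.42 to 7.36 in MIX, 6.41 to 6.86 in E2, 6.60 to 7.01 in HD and 6.51 to 7.36 in CON. Their medians over mice ran from 5.09 for Lmod1 to 8.45 for Acta2, and whether muscle was scraped along was not tested. The mean of 13 macrophage markers was 7.70 to 8.90 in MIX, 7.72 to 8.08 in E2, 7.49 to 7.55 in HD and 6.78 to 7.12 in CON. At an unadjusted p under 0.05 in limma, 10 of the 13 stood in MIX with CON (8.34% of all features). In E2 with CON 8 stood (4.02%) and in HD with CON 2 (2.91%). None of the 13 passed an adjusted p of 0.05 in these comparisons. The mean of 9 squamous epithelial markers was 6.97 to 8.31 in MIX, 6.13 to 7.27 in E2, 5.68 to 5.87 in HD and 5.50 to 6.01 in CON. All 8 mesothelial markers were higher with the pellet in the averaged difference, and 6 stood at an unadjusted p under 0.05 in limma. Of all features, 38.9% were higher there and 9.99% stood at that p. Krt19, among the 8, is also in the epithelial list. The mesothelial mean was 8.83 to 9.45 in MIX, 8.46 to 9.54 in E2, 8.47 to 8.64 in HD and 7.86 to 8.42 in CON. MIX replicate 2 stood apart, with the mean of 10 endothelial markers at 7.65, against 5.20 to 6.25 in the other mice, and the highest stromal mean, 9.46 over 12 markers. Without it the averaged pellet difference of Pik3r1 was -0.43 (-0.40 with it) and the MIX with CON difference of Ctcf was -0.23 (-0.25 with it). In bulk tissue fewer cells of a type and less RNA per cell cannot be told apart, and the part of these markers in the results was not tested beyond the relations given below.

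None of the 4 genes passed in any of 8 comparisons, where passing means a Benjamini-Hochberg adjusted p under 0.05 in limma, counted over the whole array. Few features of the whole array passed either. The share was 0.00303% in MIX with CON, 0.0% in E2 with CON, 0.0% in HD with CON, 0.0% in MIX with E2 and 0.00455% in MIX with HD. It was 0.0167% for the pellet difference averaged over both diets, and 0.0% for the diet difference averaged over mice with and without a pellet. It was also 0.0% for the interaction, the MIX minus HD difference less that of E2 minus CON. At an unadjusted p under 0.05, where 9.99% of features stood for the averaged pellet difference, 1 of the 4 genes stood, Pik3r1. In E2 with CON 4.02% of features stood and again Pik3r1 alone of the 4, and in MIX with CON 8.34% stood and Pik3r1 alone. None of the 4 stood at that p in HD with CON (2.91% of features), MIX with E2 (2.78%), MIX with HD (7.05%), the averaged diet difference (3.36%) or the interaction (2.1%).

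Pik3r1, the p85α regulatory subunit, had its lowest group mean in E2 and its highest in CON. Its log2 values were 9.56, 9.58 and 9.16 in MIX mice, 9.12, 9.25, 8.86 and 9.45 in E2 mice, 9.51, 9.38 and 9.46 in HD mice, and 9.45, 9.75 and 10.10 in CON mice. CON held the highest mouse and E2 the lowest, and each treated group overlapped CON through the lowest CON mouse, whose value equalled that of the highest E2 mouse. Group means were 9.43 ± 0.24 in MIX (SD, n = 3), 9.17 ± 0.25 in E2 (n = 4), 9.45 ± 0.06 in HD (n = 3) and 9.77 ± 0.33 in CON (n = 3). In that order, CON, HD, MIX and E2, the neighbouring groups overlapped.

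For Pik3r1 the fitted difference of E2 from CON was -0.57 (SE 0.15, 95% confidence interval -0.90 to -0.25, adjusted p = 0.9998 in limma). Among the numbered mice alone it was -0.53. MIX differed from CON by -0.54 (SE 0.18, interval -0.93 to -0.14, adjusted p = 0.459 in limma), a value that was -0.34 without the term for code style and -0.29 with code style as a random block. The code style difference of Pik3r1 itself, lettered minus numbered, was 0.30. HD differed from CON by -0.32 (interval -0.66 to 0.03), and by -0.15 among the numbered mice. Averaged over diets, Pik3r1 was 0.759 times as high with the pellet as without it, a log2 difference of -0.40 (SE 0.11, interval -0.65 to -0.15, unadjusted p = 0.00534, adjusted p = 0.328 in limma). Without code style the plain pellet difference was -0.31, with p = 0.0671 in an exact two-sided permutation test over 700 relabelings of mice within diets, in which 0.0014 is the smallest p possible. Leaving out CON replicate 3, the highest mouse, made it -0.23. Over the 13 mice left out in turn the exact p lay between 0.0429 and 0.151, and it was under 0.05 without MIX replicate 1, MIX replicate 2 or CON replicate 1. MIX and HD differed by -0.22 (interval -0.62 to 0.18), or -0.08 without MIX replicate 3 and -0.45 without HD replicate 3. The interaction of 0.35 had an interval of -0.17 to 0.87 and was 0.11 without HD replicate 3, HD with CON was -0.17 without that mouse, and MIX and E2 differed by 0.04 (interval -0.35 to 0.43).

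**Figure D1:**
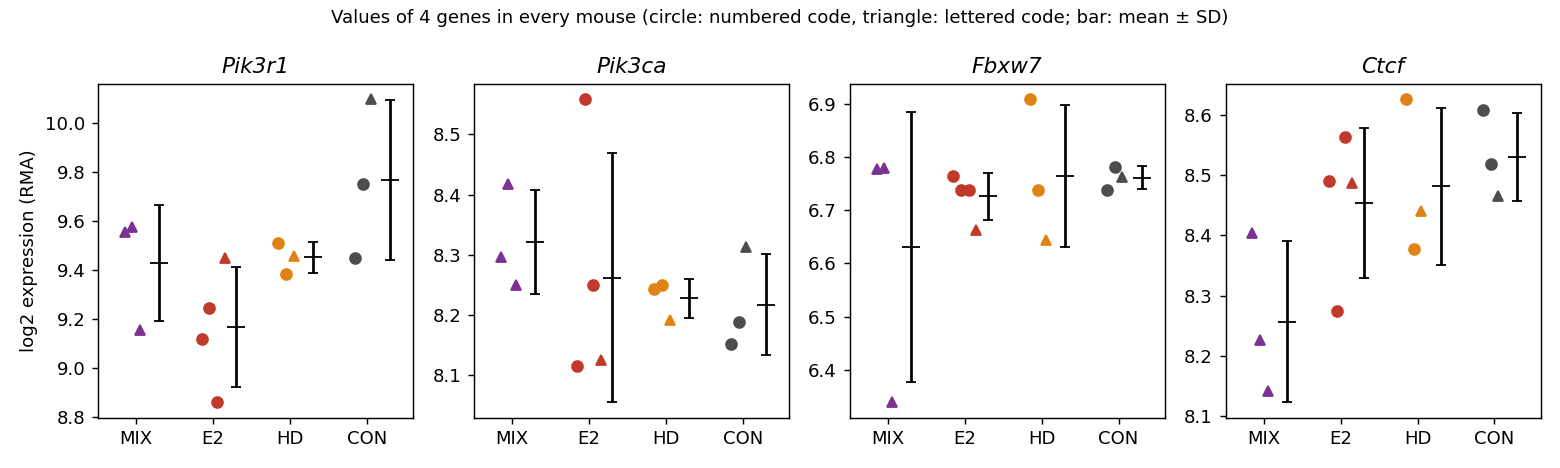
Log2 expression of the 4 measured genes in each mouse (points) with the group mean and SD (bars), by group in the order MIX, E2, HD and CON, with numbered animal codes as circles and lettered ones as triangles. Pik3r1 spanned 8.86 to 10.10 and its group means ran from 9.17 in E2 to 9.77 in CON, while the group means of Pik3ca lay between 8.22 and 8.32.

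Pik3ca, the p110α catalytic subunit, had group means within 0.10 of each other. It measured 8.30, 8.42 and 8.25 in MIX mice, 8.11, 8.56, 8.25 and 8.13 in E2 mice, 8.24, 8.25 and 8.19 in HD mice, and 8.15, 8.19 and 8.31 in CON mice. Both the highest and the lowest mouse were in E2, and all groups overlapped. Means were 8.32 ± 0.09 in MIX, 8.26 ± 0.21 in E2, 8.23 ± 0.03 in HD and 8.22 ± 0.08 in CON (SD, n = 3, 4, 3 and 3). The averaged pellet difference was 0.08 with an interval of -0.10 to 0.26, but 0.016 without E2 replicate 2 and 0.15 without CON replicate 3. The diet difference was 0.05 with an interval of -0.14 to 0.24. The largest difference between 2 groups, MIX with CON, was 0.13 (interval -0.16 to 0.42), and ran from 0.075 without E2 replicate 4 to 0.27 without CON replicate 3. The exact test gave p = 0.361 for the pellet and p = 0.62 for the diet. An identical value of 8.25 was recorded in 3 mice of different groups.

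Fbxw7, the substrate receptor of the SCF ligase, had group means within 0.13 of each other. It measured 6.78, 6.78 and 6.34 in MIX mice, 6.76, 6.74, 6.74 and 6.66 in E2 mice, 6.91, 6.74 and 6.64 in HD mice, and 6.74, 6.78 and 6.76 in CON mice. MIX replicate 3 stood lowest, the other MIX mice lay within the range of the remaining groups, and 4 mice shared 1 identical value of 6.74. Means were 6.63 ± 0.25 in MIX, 6.73 ± 0.04 in E2, 6.76 ± 0.13 in HD and 6.76 ± 0.02 in CON (SD, n = 3, 4, 3 and 3). The averaged pellet difference was -0.06 (interval -0.24 to 0.12) and the diet difference -0.01 (interval -0.20 to 0.17). In the exact test the plain pellet difference of -0.08 had p = 0.423, and without MIX replicate 3 it was -0.01.

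Ctcf, the loop-anchoring protein, had its lowest group mean in MIX. It measured 8.40, 8.23 and 8.14 in MIX mice, 8.49, 8.27, 8.56 and 8.49 in E2 mice, 8.63, 8.38 and 8.44 in HD mice, and 8.61, 8.52 and 8.46 in CON mice. All MIX mice lay below all CON mice, which held for 12.4% of all features in that direction, while MIX overlapped E2 and HD. Means were 8.26 ± 0.13 in MIX, 8.45 ± 0.12 in E2, 8.48 ± 0.13 in HD and 8.53 ± 0.07 in CON (SD, n = 3, 4, 3 and 3). MIX differed from CON by -0.25 (SE 0.12, interval -0.51 to 0.01, adjusted p = 0.622 in limma), from E2 by -0.17 (interval -0.43 to 0.09) and from HD by -0.20 (interval -0.46 to 0.06). MIX with E2 was -0.11 without MIX replicate 3 or E2 replicate 4. E2 differed from CON by -0.08, or -0.017 without E2 replicate 2 and -0.042 without CON replicate 1, and HD from CON by -0.05. The plain pellet difference was -0.15 with an exact p of 0.0671, which lay between 0.035 and 0.143 over the mice left out in turn and was under 0.05 without MIX replicate 1 or E2 replicate 3. The plain diet difference was -0.12 with an exact p of 0.0929, or 0.0286 without HD replicate 1. These were 2 of 8 such exact tests, for 4 genes and 2 differences, and no p was adjusted.

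**Figure D2:**
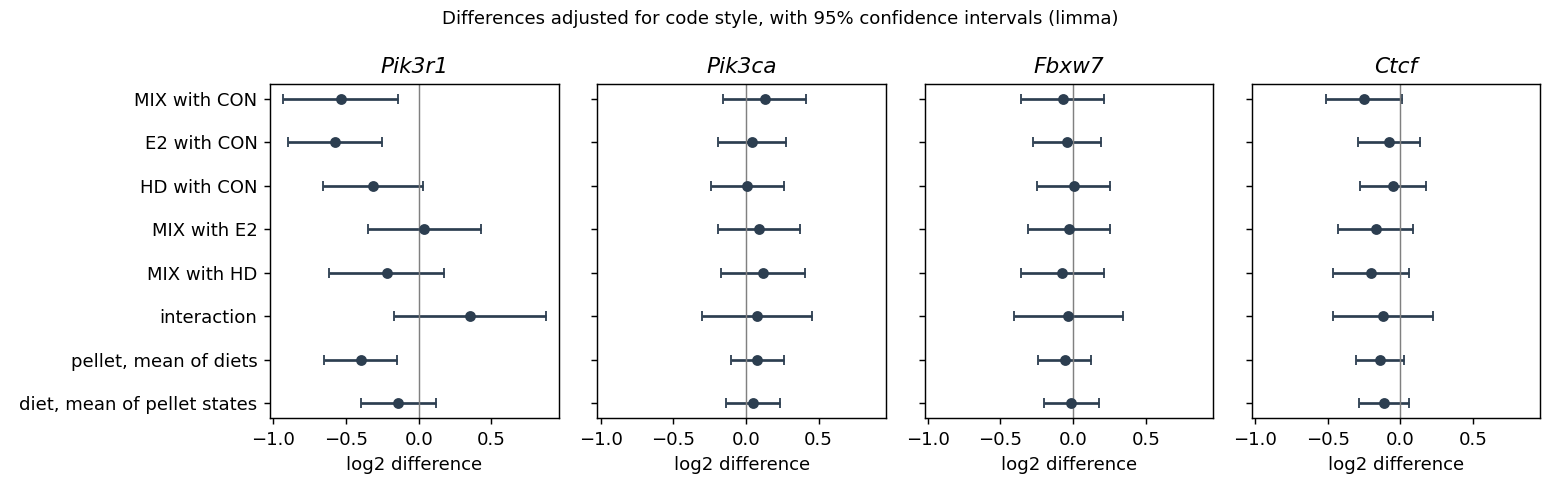
Fitted log2 differences of the 4 genes in each comparison (points) with 95% confidence intervals (bars). The intervals of Pik3r1 exclude 0 in E2 with CON (-0.90 to -0.25), MIX with CON (-0.93 to -0.14) and the averaged pellet difference (-0.65 to -0.15), all before adjustment, and every interval of Pik3ca, Fbxw7 and Ctcf includes 0.

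The spread among mice of a group was below the median of 1000 genes of like level for each of the 4 genes. The within-group SD was 0.240 for Pik3r1, at percentile 43.2 of those genes, 0.133 for Pik3ca (percentile 18.2), 0.138 for Fbxw7 (percentile 35.2) and 0.119 for Ctcf (percentile 11.6). The span from the lowest to the highest group mean was 0.60 for Pik3r1, at percentile 83.9, and 0.10 for Pik3ca, at percentile 5.0. For Ctcf it was 0.27 (percentile 44.0) and for Fbxw7 0.13 (percentile 20.2).

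Across the 13 mice the correlation of the catalytic with the regulatory PI3K subunit was near 0. Pearson's r of Pik3ca with Pik3r1 was 0.070 (permutation p = 0.811) and Spearman's rho was 0.213 (permutation p = 0.483). Of 6 pairs, Fbxw7 with Ctcf had the highest r, 0.616 (permutation p = 0.022, adjusted 0.132), but rho was 0.351 and r was -0.157 without the 2 mice farthest from the median of Fbxw7, so the relation rests on those mice. Pik3ca with Ctcf had r = -0.565 (permutation p = 0.0439, adjusted 0.132) and rho = -0.608 (adjusted 0.182), and r was -0.290 without the 2 farthest mice. For this pair r was -0.725 among the 7 numbered mice and -0.473 among the 6 lettered ones. No pair passed an adjusted p of 0.05.

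The genes were also set against the mean levels of 11 cell marker lists, 44 relations in all. Ctcf was higher in mice with more expression of 11 cycling cell markers such as Mki67 and Top2a. Its r was 0.720 (permutation p = 0.0057, adjusted 0.122) and rho 0.852 (permutation p = 5e-04, adjusted 0.0238), and r was 0.610 without the 2 farthest mice and 0.749 with group means removed. The relation was uneven between code styles, with r = 0.967 among 7 numbered mice and 0.257 among 6 lettered ones. The mean of the cycling markers was 6.82 to 7.44 in MIX, 6.44 to 8.51 in E2, 6.49 to 8.59 in HD and 7.45 to 8.54 in CON. Pik3ca ran the other way, with r = -0.665 (adjusted 0.122) and rho = -0.597 (adjusted 0.510) against the same markers. Pik3r1 was lower where the 13 macrophage markers were higher, with r = -0.709 (permutation p = 0.0083, adjusted 0.122) and rho = -0.633 (adjusted 0.509). That r was -0.926 among numbered and -0.910 among lettered mice, -0.662 with group means removed and -0.592 without the 2 farthest mice. Of these relations, rho of Ctcf with the cycling markers was the one that passed adjustment.

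**Figure D3:**
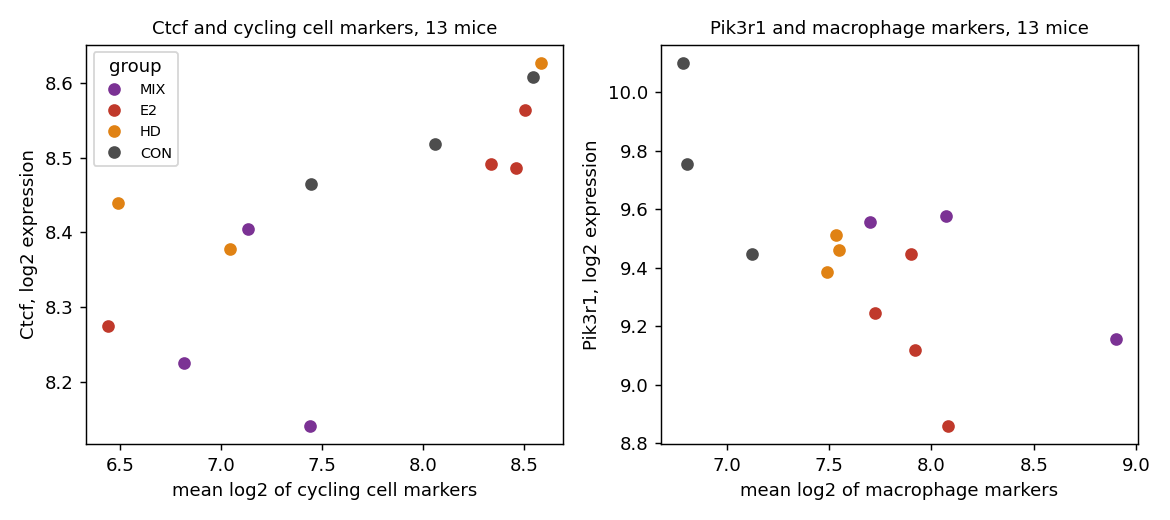
Level of Ctcf against the mean of 11 cycling cell markers, and of Pik3r1 against the mean of 13 macrophage markers, both axes in log2 units, 1 point per mouse by group. Ctcf was higher where cycling markers were higher (rho = 0.852), and Pik3r1 was lower where macrophage markers were higher (rho = -0.633), with CON mice at the low end of the macrophage axis.

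By correlation over the 13 mice after removal of group means, among 18767 named genes, the genes most like Pik3r1 were Vwa8 (r = 0.941), Sycp3 (0.920) and Lrpap1 (0.918). Those most like Pik3ca were Hpgds (0.954), Kcne2 (0.927) and Elapor1 (0.922). Hpgds makes prostaglandin D2, and Kcne2 is a potassium channel subunit. Fbxw7 was most like Gabpb2 (0.938), Sltm (0.932) and Sdhaf3 (0.930). Ctcf was most like Fastkd3 (0.925), Ncaph2 (0.918) and Cdc25b (0.911), of which Ncaph2 is a condensin II subunit and Cdc25b a phosphatase that activates the mitotic kinase Cdk1. These are the best of many candidates over few mice and are given as a description.

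The partners and targets of the 7 proteins were examined in 9 lists with 200 different genes measured. Over all lists and 8 comparisons, 1 gene passed, Trp63 in MIX with HD. For every list below, 0 members passed in the averaged pellet or diet difference in limma, and counts of signs are descriptions. Over all genes with 1 symbol the median pellet difference was -0.01, with 45.1% of genes higher and 11.0% at an unadjusted p under 0.05. The diet difference had 49.8% higher and 3.75% at that p. Brighter features, the 34711 with a group mean above the median of all values, leaned lower with the pellet (35.5% higher, median -0.05). With the high-fat diet 47.0% of these were higher (median -0.01). The lists were not set against genes of like level.

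Around PI3K, 28 of 30 listed genes of the PI3K and Akt pathway were measured. With the pellet 11 were higher and 17 lower, with a median of -0.05, and 3 stood at an unadjusted p under 0.05. Irs1, the adaptor that brings insulin and IGF1 receptors to p85α, had the smallest p. Irs1 measured 7.33, 7.62 and 6.33 in MIX mice and 6.52, 7.32, 7.46 and 8.59 in E2 mice, against 8.77, 7.97 and 8.23 in HD mice and 8.38, 8.40 and 9.98 in CON mice. All MIX mice were below all HD and CON mice, while 1 E2 mouse lay among CON. MIX lay wholly below CON in 12.4% of all features, and the share that lay below HD as well was not counted. The averaged pellet difference of Irs1 was -1.63 (SE 0.33, adjusted p = 0.189 in limma). Mlst8, a subunit of both mTOR complexes, differed by -0.24 (adjusted p = 0.409). With the high-fat diet 16 genes were higher and 12 lower (median 0.05), and Irs1 differed by -0.86 and Pik3r3, another regulatory subunit, by 0.36 (adjusted p = 0.9998 in limma for both). Without each mouse in turn Pik3r3 ran from 0.22 to 0.47, and over all 23 alternative fits from 0.13 to 0.47.

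SWI/SNF subunits, the partners of Arid1a, leaned lower in both averaged differences. The pellet lean lay beside a smaller one of brighter features in general, given above. Of 27 subunits 22 were lower with the pellet and 5 higher (median -0.08), and 7 stood at an unadjusted p under 0.05. With the high-fat diet 26 were lower and 1 higher, with a median of -0.07 and 2 at that p. In MIX with CON 26 were lower and 1 higher, with a median of -0.16. There 46.3% of all genes with 1 symbol were higher, with a median of -0.01. Of the brighter features 38.0% were higher in MIX with CON, with a median of -0.06. Smarcd2, the BAF60B subunit, measured 7.78, 7.71 and 7.63 in MIX mice and 7.58, 7.63, 7.83 and 7.87 in E2 mice, against 8.12, 7.99 and 7.90 in HD mice and 8.00, 8.06 and 8.07 in CON mice. Every pellet mouse was below every mouse without a pellet, but the share of all features that separated in this way was not counted. Its pellet difference was -0.32 (SE 0.07, adjusted p = 0.223 in limma), and that of the accessory subunit Bcl7a was -0.40 (SE 0.12, adjusted p = 0.353). In the diet difference Smarcb1, a core subunit, had -0.29 and Dpf2 had -0.22, with an adjusted p of 0.9998 each in limma. Without each mouse in turn Smarcb1 ran from -0.38 to -0.15 and Dpf2 from -0.29 to -0.13. Over all 23 alternative fits Smarcb1 ran from -0.38 to -0.11 and Dpf2 from -0.30 to -0.069.

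For β-catenin, 22 of 23 genes of its destruction complex and binding partners were measured, and 18 were lower and 4 higher with the pellet (median -0.13, 6 at an unadjusted p under 0.05). Pygo2, a coactivator of β-catenin, differed by -0.13 (SE 0.04) and Tcf7l1, a TCF factor that mostly represses, by -0.29 (SE 0.10), with adjusted p of 0.384 and 0.415 in limma. Of 20 measured target genes of 24, 6 were higher and 14 lower (median -0.05, 3 at that p). Cd44, a hyaluronan receptor and a target in other tissues, measured 7.73, 8.42 and 9.82 in MIX mice and 8.91, 6.73, 7.45 and 7.54 in E2 mice, against 6.50, 5.89 and 5.84 in HD mice and 6.85, 6.47 and 6.43 in CON mice. MIX lay above HD and CON throughout, a pattern whose share among all features was not counted, and E2 replicate 2 lay within the CON range. Its pellet difference was 1.90 (SE 0.42, adjusted p = 0.227 in limma), and that of the Wnt receptor Fzd7 was 0.22 (SE 0.06, adjusted p = 0.328). The diet differences had medians of -0.02 for the partners and -0.06 for the targets. By the smallest p these named Cdh2 (-0.45), Amer1 (-0.23), Fzd7 (0.20) and the Wnt inhibitor Wif1 (-0.44), with an adjusted p of 0.9998 each in limma.

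For p53, 17 regulators and 32 of 33 target genes were measured. With the pellet 3 regulators were higher and 14 lower (median -0.07), whereas 19 targets were higher and 13 lower (median 0.06), with 2 and 5 genes at an unadjusted p under 0.05. Trp63, the p53 relative that marks basal and squamous epithelium, measured 5.27, 5.18 and 5.38 in MIX mice and 4.60, 4.60, 4.51 and 4.62 in E2 mice, against 4.39, 4.39 and 4.50 in HD mice and 4.62, 4.62 and 4.50 in CON mice. MIX stood above all other mice, and the rest lay near the median of all values, 4.61. For how many of all features MIX stood above every other mouse was not counted. Trp63 rose in MIX over HD by 0.84 (SE 0.08, adjusted p = 0.0265 in limma). Its adjusted p was between 0.00342 and 0.278 over 23 alternatives, and it exceeded 0.05 when any of 10 of the 13 mice was left out, the exceptions being MIX replicates 1 and 2 and E2 replicate 3. The squamous marker mean of the same mice, to which Trp63 itself contributes, is given above, and its part in this difference was not tested. Among the targets, Pmaip1, the proapoptotic Noxa, had a pellet difference of 0.77 (SE 0.25, adjusted p = 0.375) and Dram1, a lysosomal membrane protein in autophagy, one of 0.52 (SE 0.17, adjusted p = 0.382). Without MIX replicate 1 Dram1 had 0.68 and passed (adjusted p = 0.038 in limma). The acetyltransferase Ep300 had -0.32 (SE 0.09, adjusted p = 0.349 in limma). With the high-fat diet 6 regulators were higher and 11 lower (median -0.05), and 20 targets were higher and 12 lower (median 0.02). In the diet difference Pmaip1 had 0.60 and Trp53inp1, a stress-induced p53 target, 0.80, with an adjusted p of 0.9998 in limma for both. Trp53inp1 ran from 0.50 to 1.13 without each mouse in turn. Of the regulators Trp63 and Ep300 had the smallest p in diet. Over 23 alternative fits Trp63 ran from 0.21 to 0.30 and Ep300 from -0.34 to -0.13 in diet, and neither passed.

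For Fbxw7, 20 of 22 ligase partners and substrates were measured, and 7 were higher and 13 lower with the pellet (median -0.05, 4 at an unadjusted p under 0.05). Notch1, a receptor and substrate, differed by -0.37 (SE 0.11, adjusted p = 0.348) and Skp1, the adaptor that joins Fbxw7 to Cul1, by -0.16 (SE 0.05, adjusted p = 0.355 in limma). With the high-fat diet 5 were higher and 15 lower, with a median of -0.07 and none at an unadjusted p under 0.05. There Myc had -0.41 and Nfe2l1 had 0.10. Myc ran from -0.52 to -0.21 without each mouse in turn, and from -0.52 to -0.11 over all 23 alternative fits.

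For Ctcf, 18 of 19 cohesin and architectural genes were measured, and 5 were higher and 13 lower with the pellet (median -0.04, 1 at an unadjusted p under 0.05). Maz, a zinc-finger protein that acts beside Ctcf at boundaries, differed by -0.25 (SE 0.11, adjusted p = 0.498) and the cohesin loader Nipbl by -0.18 (SE 0.09, adjusted p = 0.549 in limma), which was -0.06 without CON replicate 3. The diet counts were also 5 higher and 13 lower, with a median of -0.10. There the cohesin regulator Pds5b had -0.23 (-0.34 to -0.11 without each mouse in turn) and the cohesin deacetylase Hdac8 had 0.24 (0.14 to 0.35).

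Other genes recurrently mutated in endometrial cancer formed the last list, with 24 of 30 measured. With the pellet 5 were higher and 19 lower, with a median of -0.10 and 5 at an unadjusted p under 0.05, and with the high-fat diet 6 were higher and 18 lower (median -0.14). Kmt2d, a histone H3 lysine 4 methyltransferase, had a pellet difference of -0.44 (SE 0.13, adjusted p = 0.353), and Sox17, a transcription factor of uterine epithelium, one of -0.83 (SE 0.27, adjusted p = 0.373 in limma). Sox17 also had a diet difference of -0.56, and Ppp2r1a, the scaffold subunit of protein phosphatase 2A, one of -0.19. Without each mouse in turn Ppp2r1a ran from -0.27 to -0.11. Over all 23 alternative fits Ppp2r1a ran from -0.27 to -0.015 and Sox17 from -0.75 to -0.19, and neither passed.

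**Figure D4:**
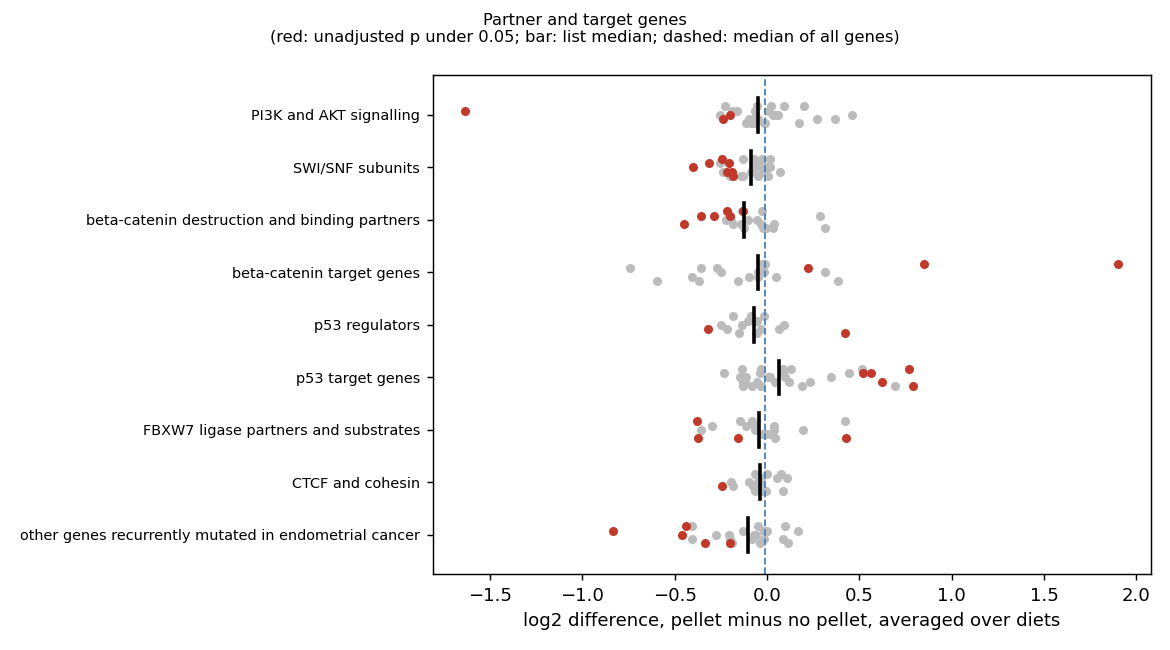
Log2 differences of each measured gene (points) in the 9 lists of partners and targets, for the pellet difference averaged over diets, with the list median (bar), genes at an unadjusted p under 0.05 in red and the median of all genes as a dashed line. The medians lay between -0.13 and 0.06, and Cd44 (1.90) and Irs1 (-1.63) stood farthest from 0.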

How the data were processed

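Endometrial RNA of 13 mice (MIX 3, E2 4, HD 3 and CON 3) was hybridised to Affymetrix arrays, 1 per mouse. The deposited log2 values were made by the authors with RMA, which corrects background, equalises the arrays and summarises probes, per the submitters' processing notes. For its version and the genome build of the features nothing is given in the sources used here. RMA compresses differences of dim features. Precision is limited by the few mice, since arrays have no read depth. That each sample is a separate mouse is taken from the sample codes. Otherwise p-values would measure technical spread. Pairwise array correlations were 0.960 to 0.995, and no array copied another.

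Of 65929 features, 30604 carried 1 symbol (827 updated through Entrez identifiers), 2146 carried several and 33179 were unnamed here. Genes took the feature with the highest mean. The test was limma's (lmFit, then eBayes; version 3.58.1, R 4.3.3), all mice in 1 fit of 4 group coefficients plus code style, two-sided, Benjamini-Hochberg over all features, threshold 0.05. Residual degrees of freedom were 8 and prior ones 2.23. By code style 0 features passed, and 3516 stood at an unadjusted p under 0.05. Correlations used 100000 permutations and cover 6 pairs, since 4 genes were measured. The fit was tested on simulated data.

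Named are all members, from each list up to 4 passing genes or else the 2 with the smallest unadjusted p, and 3 most similar genes per member. The members and lists were chosen with earlier results of these data known. Same-numbered mice deviated with correlations of -0.308 to 0.363, and the labels tie no numbers together, so numbers were not taken as pairs. Alternatives changed the code style term, replicate block, filters, scaling, prior, array weights and mice.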

Additional observations from a re-analysis of the deposited data

Results flagged for a closer look

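Among 34 genes examined for an outlying mouse in E2, the group with 4 mice, 1 was found. Kmt2d measured 7.54 in E2 replicate 1, against 8.25, 8.28 and 8.33 in the other E2 mice. The gap to the nearest of these was above Dixon's 95% critical value for 4 samples. Chance flags about 1 in 20 groups. No cause was tested.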

How the results depend on the processing

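No difference of the 4 genes passed an adjusted p of 0.05 in limma under any of 744 refits of 32 differences, the smallest being 0.205 for Pik3r1 with the pellet, and 41 refits turned a sign. Pik3ca turned with the replicate block in MIX with E2 (-0.13), MIX with HD (-0.0009), the interaction (-0.14) and diet (-0.059). Pik3r1 turned with the replicate block in MIX with E2 (-0.27), with code style as a random block in MIX with HD (0.026) and diet (0.0004), and with the replicate block without code style in diet (0.020). Fbxw7 turned with the replicate block in E2 with CON (0.032), with quantile normalization in HD with CON (-0.013), and with array weights in MIX with E2 (0.012), the interaction (0.0077) and diet (0.0085), and Ctcf with array weights in the interaction (0.0048). With the replicate block Trp53inp1 (-0.040) and Hdac8 (-0.053) turned in diet. Without each mouse in turn, Pik3ca ran from -0.054 to 0.12 in E2 with CON, -0.032 to 0.099 in HD with CON, -0.030 to 0.15 in MIX with E2, -0.041 to 0.14 in the interaction and -0.0099 to 0.13 in diet. Pik3r1 ran from -0.063 to 0.18 in MIX with E2 and -0.11 to 0.056 in the plain diet difference. Fbxw7 ran from -0.15 to 0.075 in MIX with CON, -0.060 to 0.049 in HD with CON, -0.10 to 0.12 in MIX with E2, -0.15 to 0.071 in MIX with HD, -0.11 to 0.11 in the interaction, -0.096 to 0.015 with the pellet, -0.056 to 0.060 in diet and -0.082 to 0.028 in the plain diet difference. Ctcf ran from -0.12 to 0.014 in HD with CON. The counts of passing features moved more. MIX with CON (2) had 15 without code style, 27 with it as a random block, 0 with the replicate block with or without code style, 11 without dim features, 13 over features with 1 symbol, 1 with quantile normalization, 13 with array weights and 0 to 89 without each mouse. MIX with HD (3) had 12 without code style, 15 with the random block, 0 with the replicate block, 5 without dim features, 7 over features with 1 symbol, 5 centred, 5 quantile normalized, 7 with array weights and 0 to 80 without each mouse. The averaged pellet difference (11) had 0 with the replicate block, 3 with the block without code style, 17 over features with 1 symbol, 6 centred, 7 with a trended robust prior and 0 to 224 without each mouse (0 without CON replicate 3, 224 without MIX replicate 1). MIX with E2 (0) had 1 without code style, 1 with the random block and 0 to 24 without each mouse, diet (0) had 1 with array weights and 0 to 3, and the interaction (0) had 0 to 2. The cause was not tested. Trp63 with the pellet (adjusted p = 0.0511) passed in 6 refits, with the smallest adjusted p at 0.0194 in limma, and Dram1 passed in 1 (0.038). Each gene had 1 feature, so the alternative of another feature was not run.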

Other observations

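Exactly repeated values were common in the deposited data. Of all features, 43.0% had the same value in at least 2 mice, 23.1% in at least 3 and 12.0% in at least 4. Among the 4 genes this held for Pik3r1 in 2 mice, Pik3ca in 3 and Fbxw7 in 4, and Ctcf had no repeated value.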
